A study of Homo sapiens with 12 samples.

Results

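Genes of the NRF2 axis and of glutathione metabolism were followed in C4-2 cells after knockdown of choline kinase alpha (CHKA), the enzyme that phosphorylates choline at the start of the Kennedy pathway. The set holds 10 genes, chosen by name: NFE2L2, KEAP1, GCLC, GCLM, GSS, GSR, GPX1, GPX4, NQO1 and HMOX1. All 10 were matched by Ensembl identifier among the 54127 identifiers counted, and all 10 were among the 14501 genes that passed the filter on low counts and were tested. C4-2 is an established subline of LNCaP, a prostate cancer cell line. The cells grew in RPMI medium with 10% serum and were reverse transfected with 50 nM of an siRNA pool against CHKA (siCHKA, 6 libraries) or with nontargeting siRNA at the same dose (siNT, 6 libraries). Both groups are the same cell line, a limit of the model, and the time between transfection and harvest is not given in the sources used here.

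NRF2, the protein of NFE2L2, is a transcription factor that cells keep at a low level in the resting state, because KEAP1 hands it to a CUL3 ubiquitin ligase for degradation. Oxidants and electrophiles act on KEAP1, NRF2 then accumulates, pairs with small MAF proteins and binds antioxidant response elements near genes for glutathione synthesis, quinone reduction and haem breakdown. Glutathione is built by glutamate-cysteine ligase (GCLC, the catalytic subunit, and GCLM, the modifier subunit) and glutathione synthetase (GSS), is spent by the glutathione peroxidases GPX1 and GPX4, and is returned to its reduced form by glutathione reductase (GSR).

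The promoters were compared first, in the stretch around an annotated start only. RefSeq windows (GRCh38.p14, from 250 bases before to 50 bases after an annotated start) were found for 7 of the 10 genes, 11 windows in all. GSS, GSR and HMOX1 had no entry. Each window was searched on both strands for TGACNNNGC and TGAGNNNGC, the cores of the antioxidant response element, where N is any base. TGACNNNGC was held by 13.4% of all 35116 windows of this length (14.6% of those of tested genes), TGAGNNNGC by 18.3% (20.1%) and either by 29.1%. Of the 11 windows 4 held a match to either, each in a different gene, which is near that share. The windows of both regulators, of both subunits of glutamate-cysteine ligase and of NQO1 are shown 5′ to 3′ on the gene's strand, with matches in capitals:
NFE2L2 (chr2:177264082-177264381, minus strand): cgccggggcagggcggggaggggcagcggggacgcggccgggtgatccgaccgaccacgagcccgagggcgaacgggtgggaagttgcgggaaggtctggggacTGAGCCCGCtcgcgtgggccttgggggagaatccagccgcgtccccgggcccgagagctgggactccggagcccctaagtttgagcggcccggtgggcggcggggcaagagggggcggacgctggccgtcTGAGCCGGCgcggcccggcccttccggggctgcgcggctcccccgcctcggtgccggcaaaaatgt
KEAP1 (chr19:10502722-10503021, minus strand): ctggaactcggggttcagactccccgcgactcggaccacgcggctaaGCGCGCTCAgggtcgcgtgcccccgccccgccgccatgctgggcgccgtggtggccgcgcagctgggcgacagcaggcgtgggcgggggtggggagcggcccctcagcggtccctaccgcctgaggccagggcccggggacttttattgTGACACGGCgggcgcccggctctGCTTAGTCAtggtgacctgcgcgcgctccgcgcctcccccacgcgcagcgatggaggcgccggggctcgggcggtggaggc
GCLC (chr6:53545052-53545351, minus strand): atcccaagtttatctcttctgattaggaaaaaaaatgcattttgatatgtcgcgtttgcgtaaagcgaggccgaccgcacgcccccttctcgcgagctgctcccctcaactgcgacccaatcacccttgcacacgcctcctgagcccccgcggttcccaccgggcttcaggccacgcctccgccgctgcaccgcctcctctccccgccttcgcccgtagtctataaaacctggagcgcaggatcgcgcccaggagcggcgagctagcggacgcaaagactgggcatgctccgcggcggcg
GCLM (chr1:93909381-93909680, minus strand): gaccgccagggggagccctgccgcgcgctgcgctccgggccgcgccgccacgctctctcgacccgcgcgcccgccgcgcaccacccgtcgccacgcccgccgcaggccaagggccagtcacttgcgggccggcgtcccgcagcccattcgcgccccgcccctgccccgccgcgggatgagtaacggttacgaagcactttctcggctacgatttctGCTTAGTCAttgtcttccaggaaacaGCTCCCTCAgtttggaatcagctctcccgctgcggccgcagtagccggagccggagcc
NQO1 (chr16:69726511-69726810, minus strand): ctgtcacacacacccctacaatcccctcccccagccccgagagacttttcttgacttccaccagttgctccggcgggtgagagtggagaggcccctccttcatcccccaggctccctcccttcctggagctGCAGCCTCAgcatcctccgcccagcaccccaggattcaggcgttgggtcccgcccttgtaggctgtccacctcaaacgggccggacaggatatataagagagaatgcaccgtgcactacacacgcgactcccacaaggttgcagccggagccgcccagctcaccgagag
The GCLM and KEAP1 windows hold the same 9 letters, GCTTAGTCA, which is TGACNNNGC read on the other strand, starting 34 bases before the GCLM start and 31 bases before this KEAP1 start. GCLC holds neither core in this window, and GPX1 and GPX4 do not either. A match is a description of the letters and not a bound site, and no match says only that these letters are not in this stretch. NFE2L2 and KEAP1 have a further annotated start each, whose windows held no match and are not shown. Which of its starts either gene uses in these cells was not tested.

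Between 10685184 and 24246055 reads fell on genes per library, so that each of the 10 genes had between 336 and 11000 reads in a library. CHKA itself was left at 6.80% of its siNT level, with no siCHKA library above 4.67 CPM (read counts scaled to library size after TMM normalization) and no siNT library under 36.7 CPM. All 8 prostate epithelial markers fixed as a list, KLK3 among them, were present. All 8 changed, 5 lower and 3 higher, beside 62.2% of all genes tested, 30.1% lower and 32.1% higher. The markers summed to 4638 to 5959 CPM after siCHKA and 5013 to 6481 CPM after siNT, here scaled to library size without TMM. Of 9 markers of other cell types in the files, 5 had at most 12 reads over all 12 libraries together. COL1A1 (log2 fold change 0.82) and CD68 (0.68) were tested and rose, and the summed level of the list was 29.1 to 38.2 CPM after siCHKA and 13.2 to 21.6 CPM after siNT on the same scale. The part of these transcripts in the results was not tested. The siCHKA libraries fall into sets. Replicates 1, 3 and 5 differed from each other by a chi-square per degree of freedom of 4.05 to 9.498 and replicates 2, 4 and 6 by 2.39 to 4.09, against 12.5 to 24.9 across these sets. For 47.5% of all genes tested the 3 libraries of these sets did not overlap. The labels name no batch, so what separates the sets cannot be told from them, and results that rest on either set are given with each set alone. The sets were found in these same counts, so every p from either set alone is descriptive only. Pairs of siNT libraries differed by 2.51 to 30.9, the widest exceeding any siCHKA pair, so the siNT group was not uniform either. NFE2L2, GCLC, GCLM and HMOX1 were each lower in all of siNT replicates 1, 2 and 3 than in any of 4, 5 and 6. The other genes of the 10 overlapped between these siNT replicates. No fit split the siNT libraries in this way. In bulk RNA, fewer cells with a transcript and less transcript per cell cannot be told apart.

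After siCHKA 9 of the 10 genes passed the test (edgeR's quasi-likelihood test, Benjamini-Hochberg adjusted p below 0.05), 4 lower and 5 higher. Calls were frequent everywhere, however: 62.2% of all genes tested changed, 30.1% lower and 32.1% higher. The median absolute log2 fold change of the 10 genes was 0.30, and that of all genes tested was 0.31. HMOX1, NFE2L2, GCLC and KEAP1 had the largest changes of the 10, in this order, and the other 6 had log2 fold changes of at most 0.33 in size. When the test required more than a 1.2-fold change (glmTreat in edgeR), NFE2L2, GCLC, KEAP1 and HMOX1 were called, 4 of the 10, against 36.5% of all genes tested.

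**Figure D1:**
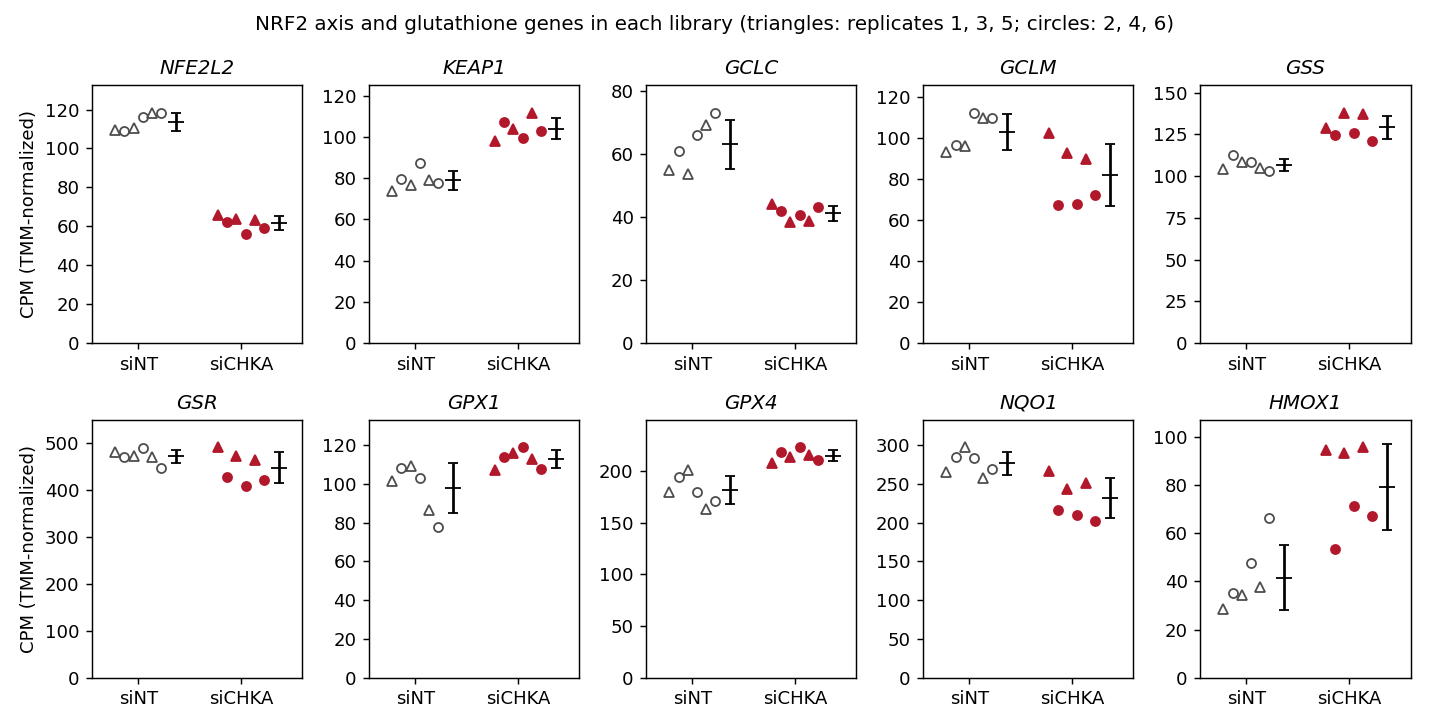
TMM-normalized CPM of the 10 genes in each of 6 siNT (open) and 6 siCHKA (filled) libraries, each axis starting at 0, with mean ± SD beside the points; triangles mark replicates 1, 3 and 5 and circles replicates 2, 4 and 6. NFE2L2, KEAP1, GCLC, GSS and GPX4 do not overlap between groups, and the triangles and circles of siCHKA do not overlap for NFE2L2, GCLM, GSS, GSR, NQO1 and HMOX1.

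The regulators moved in opposite directions. NFE2L2 (ENSG00000116044, minus strand of chromosome 2, 177218667 to 177392756 in GRCh38) was measured at 56.0 to 65.7 CPM after siCHKA, with a median of 62.5, and at 109 to 118 CPM after siNT, with a median of 113. The lowest siNT library lay well above the highest siCHKA library. Its mean was 114 ± 4.55 CPM (SD, n = 6) after siNT and 61.7 ± 3.51 CPM (SD, n = 6) after siCHKA, giving a log2 fold change of -0.88 (standard error, SE, 0.049, edgeR adjusted p = 8.55e-11), or 54.3% of the siNT level. In size this exceeds the change of 86.9% of all genes tested. KEAP1 (ENSG00000079999, minus strand of chromosome 19, 10486125 to 10503558), the adaptor that presents NRF2 for degradation, was measured at 98.3 to 112 CPM after siCHKA, with a median of 104, and at 73.7 to 87.4 CPM after siNT, with a median of 78.5. The groups did not overlap, and the log2 fold change was 0.39 (SE 0.050, edgeR adjusted p = 2.88e-06). For each of the pair a two-sided exact permutation test over the libraries gave p = 0.00216, the smallest that 6 libraries against 6 allow. Of the 10 genes, 5 did not overlap between groups, beside 40.6% of all genes tested.

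Taking the 2 transcripts as a ratio within each library removes the library scaling. The log2 ratio of NFE2L2 to KEAP1 CPM was 0.52 ± 0.079 (SD, n = 6) after siNT and -0.75 ± 0.098 (SD, n = 6) after siCHKA. It lay between 0.41 and 0.61 in the siNT libraries and between -0.83 and -0.58 in the siCHKA libraries, so that NFE2L2 reads outnumbered KEAP1 reads in all 6 siNT libraries and were outnumbered in all 6 siCHKA libraries. The difference was -1.28 (exact permutation test, two-sided, p = 0.00216, Benjamini-Hochberg adjusted p = 0.00649 over the 3 ratios computed). Both genes already separated the groups, in opposite directions, so this p could only be the smallest possible and adds no support. With siCHKA replicates 1, 3 and 5 alone and with 2, 4 and 6 alone the difference had the same sign, and over all alternatives it ran from -1.33 to -1.19.

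**Figure D2:**
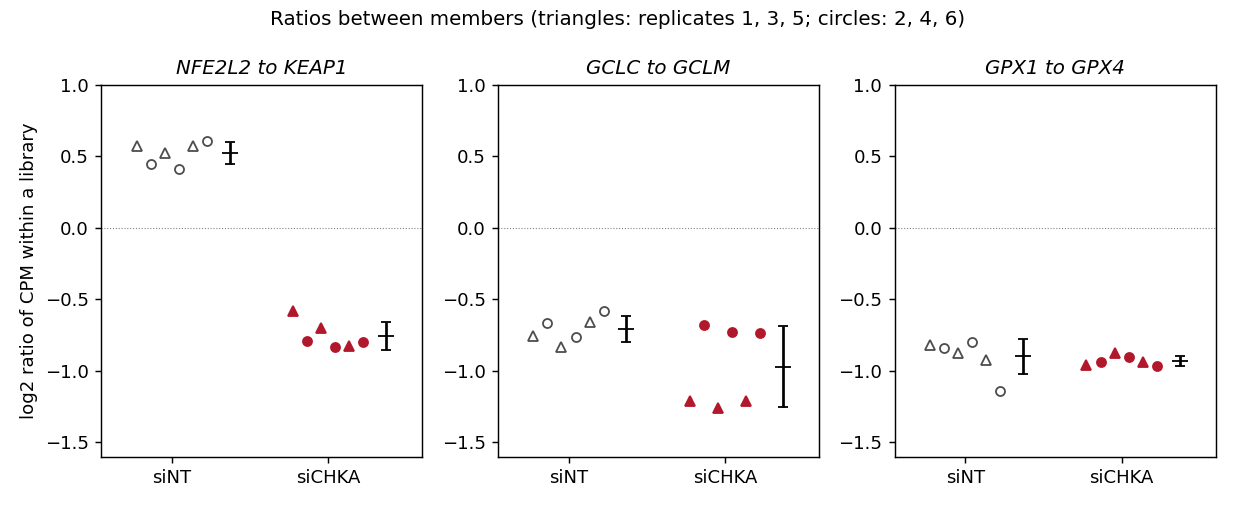
Log2 ratio of CPM between 2 genes within each library, not corrected for transcript length, for NFE2L2 to KEAP1, GCLC to GCLM and GPX1 to GPX4, with mean ± SD (n = 6) beside the points and the symbols of the plot of levels. NFE2L2 to KEAP1 lies above 0 in every siNT library and below 0 in every siCHKA library, and GCLC to GCLM is lower in siCHKA replicates 1, 3 and 5, at -1.26 to -1.21.

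GCLC and GCLM, the subunits of the rate-limiting enzyme of glutathione synthesis, were both lower after siCHKA, but differed in how evenly. GCLC (ENSG00000001084, minus strand of chromosome 6, 53497341 to 53616970) was measured at 38.5 to 44.1 CPM after siCHKA, with a median of 41.3, and at 53.7 to 73.2 CPM after siNT, with a median of 63.6. The groups did not overlap, although the siNT libraries spread more widely, with replicates 1 and 3 lowest at 54.9 and 53.7 CPM. The log2 fold change of GCLC was -0.61 (SE 0.073, edgeR adjusted p = 1.55e-06), and it was -0.63 and -0.59 with each set of siCHKA libraries alone. GCLM (ENSG00000023909, minus strand of chromosome 1, 93885199 to 93909456) was measured at 102, 92.5 and 89.6 CPM in siCHKA replicates 1, 3 and 5, and at 67.1, 67.5 and 72.0 CPM in replicates 2, 4 and 6. The siNT libraries lay between 92.8 and 112 CPM, with a median of 103. Replicate 1 thus sits inside the siNT range and replicates 2, 4 and 6 far below it. With all libraries the log2 fold change of GCLM was -0.33 (SE 0.099, edgeR adjusted p = 0.00786). With replicates 2, 4 and 6 alone it was -0.58 (adjusted p = 3.29e-06), and with replicates 1, 3 and 5 alone it was -0.11 and not past the threshold (adjusted p = 0.200, the 21 alternatives giving 3.29e-06 to 0.215).

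The log2 ratio of GCLC to GCLM followed the same sets. It was -1.21, -1.26 and -1.21 in siCHKA replicates 1, 3 and 5, and -0.68, -0.73 and -0.73 in replicates 2, 4 and 6, while the siNT libraries ran from -0.83 to -0.58. With all libraries the difference between groups was -0.26 and not past the threshold (exact permutation test, two-sided, p = 0.0974, adjusted p = 0.146 over the 3 ratios). With siCHKA replicates 1, 3 and 5 alone the difference was -0.52 (exact permutation test, adjusted p = 0.0179), and with replicates 2, 4 and 6 alone it was -0.01 (exact permutation test, adjusted p = 0.976, these 2 being the ends of the range over all alternatives). The sets were found in these same data, so these p are descriptive only. The 0.0179 comes from 0.0119, the smallest unadjusted p that 3 libraries against 6 allow in this test.

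GSS, which adds glycine in the last step of glutathione synthesis, rose where the ligase subunits fell. GSS (ENSG00000100983, minus strand of chromosome 20, 34928432 to 34956027) was measured at 121 to 138 CPM after siCHKA, with a median of 127, and at 103 to 113 CPM after siNT, with a median of 106. The groups did not overlap, and the log2 fold change was 0.27 (SE 0.047, edgeR adjusted p = 8.16e-05). GSR (ENSG00000104687, minus strand of chromosome 8, 30678066 to 30727846), the NADPH-dependent reductase, was not past the threshold, with a log2 fold change of -0.08 (95% interval -0.18 to 0.03, edgeR adjusted p = 0.230). Its siCHKA libraries were 492, 474 and 464 CPM in replicates 1, 3 and 5 and 427, 410 and 422 CPM in replicates 2, 4 and 6, and its siNT libraries ran from 448 to 489 CPM. Only the second set lay below siNT. With replicates 2, 4 and 6 alone the log2 fold change of GSR was -0.18 (adjusted p = 0.00783), and with replicates 1, 3 and 5 alone it was 0.02 (adjusted p = 0.825, the 21 alternatives giving 0.00783 to 1.00). The p of either set alone are descriptive only, as the sets were found in these same data.

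The peroxidases rose by little. GPX4 (ENSG00000167468, plus strand of chromosome 19, 1103982 to 1106791), the selenoenzyme that reduces lipid hydroperoxides in membranes, was measured at 207 to 223 CPM after siCHKA, with a median of 214, and at 163 to 200 CPM after siNT, with a median of 180. The groups did not overlap, and the log2 fold change was 0.24 (SE 0.052, edgeR adjusted p = 0.000674). GPX1 (ENSG00000233276, minus strand of chromosome 3, 49357174 to 49358605), the cytosolic peroxidase for hydrogen peroxide, was measured at 107 to 119 CPM after siCHKA, with a median of 113, and at 77.7 to 109 CPM after siNT, with a median of 102. The groups overlapped, and siNT replicates 5 and 6 were lowest, at 86.2 and 77.7 CPM. The log2 fold change of GPX1 was 0.20 (SE 0.074, edgeR adjusted p = 0.0233). Without siNT replicate 5 it was 0.17 (adjusted p = 0.0650) and without siNT replicate 6 it was 0.14 (adjusted p = 0.0513), so the call rests on those libraries (the 21 alternatives gave adjusted p from 0.0123 to 0.793). The log2 ratio of GPX1 to GPX4 was -0.93 ± 0.034 (SD, n = 6) after siCHKA and -0.90 ± 0.12 (SD, n = 6) after siNT, a difference of -0.03 that was not past the threshold (exact permutation test, two-sided, p = 0.641 before and after adjustment over the 3 ratios).

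NQO1 and HMOX1, both classical NRF2 target enzymes, moved in opposite directions. NQO1 (ENSG00000181019, minus strand of chromosome 16, 69706996 to 69726668), a quinone reductase, was measured at 267, 244 and 251 CPM in siCHKA replicates 1, 3 and 5 and at 216, 210 and 202 CPM in replicates 2, 4 and 6. The siNT libraries ran from 258 to 297 CPM with a median of 277. Replicate 1 overlapped siNT, and the other siCHKA libraries lay below it. The log2 fold change of NQO1 was -0.26 (SE 0.068, edgeR adjusted p = 0.00348), -0.41 with replicates 2, 4 and 6 alone (adjusted p = 1.68e-05) and -0.12 with replicates 1, 3 and 5 alone (adjusted p = 0.1004, the 21 alternatives giving 1.68e-05 to 0.501). HMOX1 (ENSG00000100292, plus strand of chromosome 22, 35380361 to 35394214), the inducible haem oxygenase, which is also repressed by BACH1, was measured at 94.7, 93.1 and 95.7 CPM in siCHKA replicates 1, 3 and 5 and at 53.3, 71.3 and 67.3 CPM in replicates 2, 4 and 6. The siNT libraries had 28.7, 35.1, 34.2, 47.8, 37.6 and 66.2 CPM in the order of their numbers. Replicate 6 of siNT lay within the range of siCHKA replicates 2, 4 and 6, and the other siNT libraries below every siCHKA library. The log2 fold change of HMOX1 was 0.94 (SE 0.18, edgeR adjusted p = 0.000208), 1.201 with replicates 1, 3 and 5 alone and 0.63 with replicates 2, 4 and 6 alone. It kept its call under all 21 alternatives, with adjusted p from 3.62e-09 to 0.00681.

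GCLM, GSR, NQO1 and HMOX1 were each higher in all of siCHKA replicates 1, 3 and 5 than in any of replicates 2, 4 and 6, as were NFE2L2 and GSS by smaller steps, 6 of the 10 genes beside the 47.5% of all genes tested that did not overlap in either direction. KEAP1, GCLC, GPX1 and GPX4 overlapped between the sets.

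**Figure D3:**
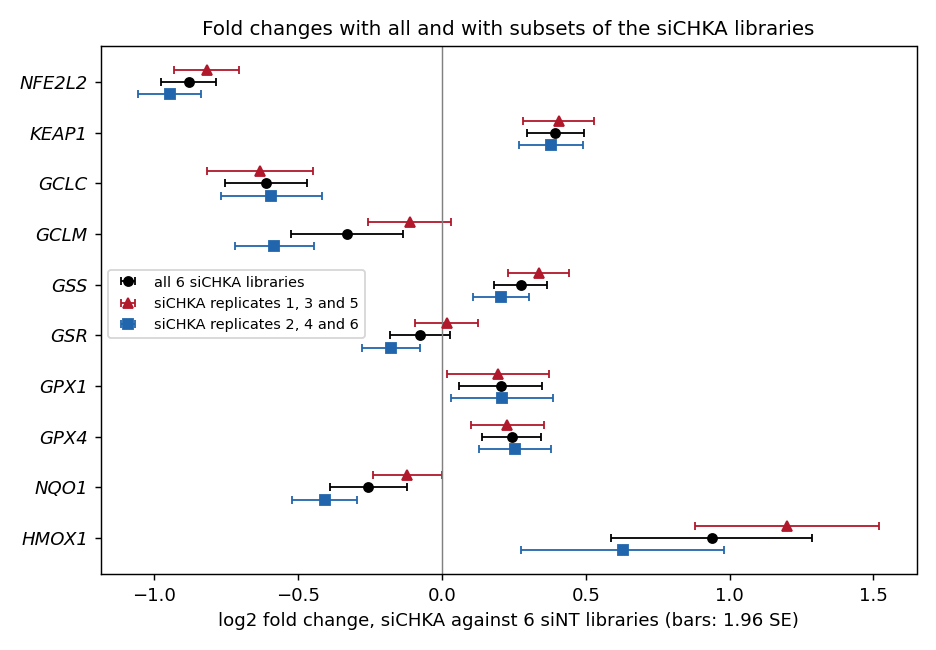
Log2 fold change of each of the 10 genes against the 6 siNT libraries, with all 6 siCHKA libraries (circles) and with replicates 1, 3 and 5 (triangles) or 2, 4 and 6 (squares) alone. Bars are approximate 95% intervals, from standard errors derived from edgeR's F statistic. All genes but GSR keep their side of 0, while GSR goes from -0.18 with replicates 2, 4 and 6 to 0.02 with 1, 3 and 5. The bar of GCLM with replicates 1, 3 and 5 crosses 0.

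Levels of different genes were set side by side only per length of the canonical transcript (CPM per kilobase, GENCODE release 44). After siNT, GPX4 was highest at 213 ± 16.2 CPM per kilobase (SD, n = 6), followed by GSR at 156 ± 4.51, and neither overlapped its neighbour in the order. NQO1 at 110 ± 5.75 CPM per kilobase and GPX1 at 109 ± 14.2 overlapped. GSS at 56.0 and NFE2L2 at 46.4 CPM per kilobase came next, and each stood clear of the gene below it. The last 4 were KEAP1 at 30.8, HMOX1 at 26.8, GCLM at 21.1 and GCLC at 16.7 CPM per kilobase, and each neighbouring pair among them overlapped. After siCHKA, HMOX1 at 51.0 CPM per kilobase (34.3 to 61.6) and KEAP1 at 40.6 (38.3 to 43.6) overlapped and are not ordered by these libraries. NFE2L2 at 25.2 CPM per kilobase lay below both. GCLC remained the lowest, at 10.9 ± 0.61 CPM per kilobase (SD, n = 6), in both groups the smallest level of the 10.

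The partners of NRF2 and the proteins that set its turnover were taken as a list of 16 genes, of which 15 were tested. Of these, 9 were lower, 3 were higher and 3 did not pass the test, with a median log2 fold change of -0.22 beside 0.03 for all genes tested, of which 30.1% were lower and 32.1% higher. BTRC, the β-TrCP adaptor of another ubiquitin ligase for NRF2, was measured at 10.0 to 11.8 CPM after siCHKA and at 20.1 to 26.3 CPM after siNT, a log2 fold change of -1.11 (SE 0.074, edgeR adjusted p = 1.05e-09). BACH1, which competes with NRF2 for small MAF partners and represses HMOX1, was measured at 19.97 to 23.0 CPM after siCHKA and at 28.9 to 38.3 CPM after siNT, a log2 fold change of -0.66 (adjusted p = 7.13e-07). SYVN1, a ubiquitin ligase of the endoplasmic reticulum, fell by 0.51. None of these 3, named for the smallest p among those lower, overlapped between groups, beside 40.6% of all genes tested that did not. In the other direction, DPP3, a peptidase that binds KEAP1 in place of NRF2, was measured at 96.6 to 120 CPM after siCHKA and at 54.0 to 61.2 CPM after siNT, a log2 fold change of 0.87 (edgeR adjusted p = 1.94e-09). The small MAF genes MAFK and MAFF had log2 fold changes of 0.22 and 0.44, and MAFG, at -0.08, did not pass the test. CUL3 (-0.24) and RBX1 (-0.40), the scaffold and RING subunit of the KEAP1 ligase, were both lower.

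A list of 44 further NRF2 target genes held 43 identifiers in the files, of which 32 were tested. The 11 that did not pass the filter, AKR1C1, AKR1B10 and ALDH3A1 among them, had at most 20 reads in any library. Of the tested genes, 18 were lower, 2 were higher and 12 did not pass the test, with a median log2 fold change of -0.22. The 20 of 32 that changed are close to the 62.2% of all genes tested, of which 30.1% were lower and 32.1% higher. PGD, the NADPH-producing enzyme of the pentose phosphate pathway, was measured at 93.9 to 120 CPM after siCHKA and at 240 to 266 CPM after siNT, a log2 fold change of -1.30 (SE 0.061, edgeR adjusted p = 1.15e-11). SLC48A1, a haem transporter, fell by 1.11 and IDH1, another source of NADPH, fell by 0.86. TKT (-0.35) and TALDO1 (-0.22), of the non-oxidative pentose phosphate pathway, and ME1 (-0.28), the NADPH-producing malic enzyme, were lower as well. FTL, the ferritin light chain, was measured at 235 to 264 CPM after siCHKA and at 133 to 164 CPM after siNT, a log2 fold change of 0.75 (adjusted p = 3.03e-09), and BLVRA, which acts after haem oxygenase, rose by 0.37. Ferritin genes have many processed copies in the genome, so that FTL and FTH1 (-0.00, not past the threshold) are measured less surely. The cystine transporter subunits SLC7A11 (-0.37) and SLC3A2 (-0.29) were lower. Of the thioredoxin branch, PRDX1 (-0.23) was lower, and TXNRD1 (-0.01) and TXN (0.05) did not pass the test.

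**Figure D4:**
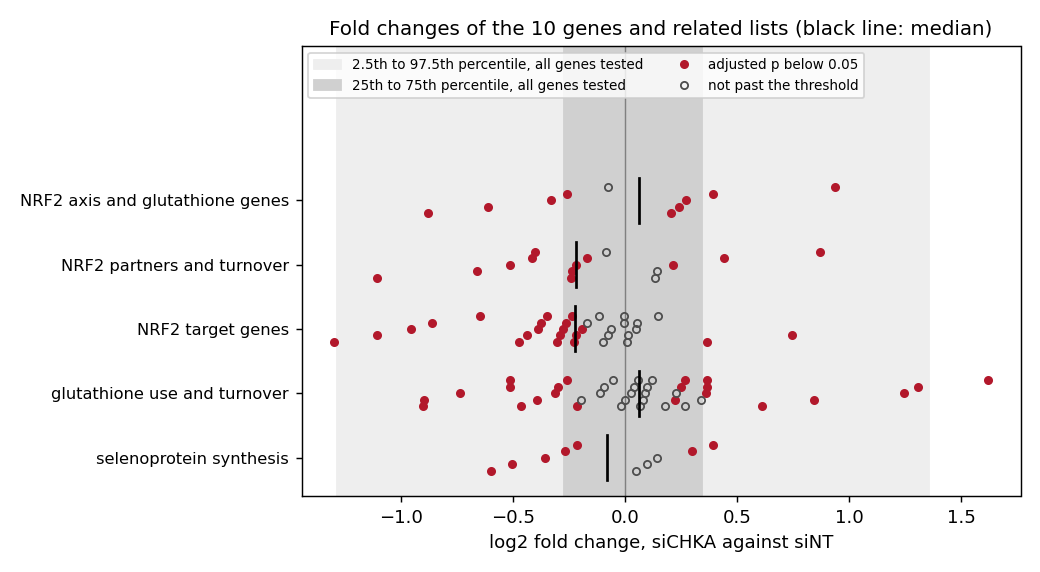
Log2 fold changes of the tested genes of 5 lists (points, filled where the adjusted p was below 0.05 in edgeR), with the median as a black line and the spread of all 14501 genes tested as grey bands. The NRF2 partners and NRF2 targets have medians of -0.22, and the 10 genes and the genes of glutathione use have medians of 0.06.

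Of 53 genes listed as using, transferring or breaking down glutathione, 52 were in the files and 40 were tested. Of these, 11 were lower, 11 were higher and 18 did not pass the test, with a median log2 fold change of 0.06, near the 30.1% lower and 32.1% higher of all genes tested. With siCHKA replicates 1, 3 and 5 alone 13 were lower and 7 higher, and with replicates 2, 4 and 6 alone 10 were lower and 14 higher. Those that rose with the smallest p were glutathione transferases: GSTA1 was at 4.10 ± 0.53 CPM (SD, n = 6) after siNT and 12.5 ± 1.22 CPM (SD, n = 6) after siCHKA, with a log2 fold change of 1.62 (SE 0.097, edgeR adjusted p = 2.54e-10). GSTA4 rose by 1.246 and GSTO2 by 1.31, GSTO2 from a mean of only 2.22 CPM after siNT. The groups did not overlap for any of these transferases, which were picked by their p, beside 40.6% of all genes tested that did not overlap. Other transferases did not all rise. MGST1 (-0.26) was lower, and GSTM2 (0.34), GSTM3 (0.08), MGST2 (-0.02) and GSTO1 (-0.19) did not pass the test. MGST3 (0.61), GSTK1 (0.36), GSTZ1 (0.37) and GSTT2B (0.84) were higher. GSTA1 has near-identical neighbours, and reads that fit several of them were left out. GSTP1, the transferase known to be silenced in most prostate cancers, had at most 1 read in any library. TXNDC12, a thioredoxin-like protein of the endoplasmic reticulum, SLC1A4, a neutral amino acid transporter, and CHAC2, which degrades glutathione, had log2 fold changes of -0.74, -0.90 and -0.90.

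GPX1 and GPX4 carry selenocysteine, so the genes that make and insert this amino acid were examined as a list of 10. All were tested, and 5 were lower, 2 were higher and 3 did not pass the test, with a median log2 fold change of -0.08, beside 30.1% lower and 32.1% higher of all genes tested. SEPHS1 (-0.60), TRNAU1AP (-0.50) and EEFSEC (-0.27), the last being the elongation factor for selenocysteine, were lower. SEPSECS (0.39) and PSTK (0.30), the enzymes that convert the tRNA-bound serine, were higher.

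Of all genes tested with a symbol, the 3 whose centred log2 CPM over the 12 libraries lay nearest to those of NFE2L2 were TNPO1, NRP1 and ITSN2, with root mean square differences of 0.040, 0.048 and 0.051. TNPO1, a nuclear import receptor, was measured at 488 ± 21.5 CPM (SD, n = 6) after siNT and 263 ± 10.2 CPM (SD, n = 6) after siCHKA. Both groups enter this measure, so a step of similar size between them brings genes near.

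The 3′ UTRs of the 10 genes were read for GCCAGAT and TGCCCTT, words picked from these same data for going with a fall across genes, so that their presence supports nothing here. HMOX1, which rose, held 1 copy of TGCCCTT, and the other 9 genes held neither word, NFE2L2 and GCLC included. Either word was held by 23.6% of the 12294 3′ UTRs of tested genes that could be read. BACH1 held 1 copy of TGCCCTT and BTRC 1 copy of GCCAGAT.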

How the data were processed

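Polyadenylated RNA of 6 siCHKA and 6 siNT samples of C4-2 cells was sequenced from 1 end. Per the submitters' processing notes and the study's methods, the authors used TopHat2 2.0.4 on GRCh37, counted reads on Ensembl genes with HTSeq 0.5.3p9 and deposited raw counts, 4 files per sample, without normalization. Reads aligned in several places (26.1% to 30.6% of the entries tallied per sample, which can hold such a read more than once) and reads on overlapping genes (2.82% to 2.93% of entries) were left out by that counting. The labels describe flow-sorted cells and a miRNeasy extraction, and the study's methods an AllPrep kit.

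The 4 files of a sample, which differed by a chi-square per degree of freedom of 0.986 to 1.01, were summed. The 5 rows of unassigned reads name no gene and were dropped, those outside any gene being 3.95% to 5.97% of the entries tallied. Ensembl identifiers were matched to symbols in GENCODE release 44 (82.8% of 54127 matched), and coordinates are those of GRCh38. Counts were filtered with filterByExpr, normalized with TMM and tested with edgeR 4.0.16 in R 4.3.3 (quasi-likelihood test, no covariates, Benjamini-Hochberg adjustment over all 14501 genes, threshold 0.05). Standard errors were derived as the absolute log2 fold change divided by the square root of edgeR's F statistic. Intervals from them use a normal approximation. CPM are counts relative to TMM-scaled library size, and their log2 values have a prior count of 2 added. With 3 counts as a floor, 0.124 to 0.281 CPM can be seen, counting error only. The labels do not say whether the samples are separate cultures. The study calls its replicates of this knockdown biological, as triplicates in 1 place and as 6 in another, and which samples were meant is not given in the sources used here. The p-values measure the spread between these samples. DESeq2 1.42.0, RLE normalization, other filters, a 1.2-fold minimum, the first count file only, the replicate block, subsets of siCHKA and leaving out each library were alternatives. On counts simulated for this comparison over 14377 genes, edgeR recovered 100% of genes changed 2-fold and 41% of those changed 1.25-fold, with 5 false calls of 146. DESeq2 made 22 false calls of 171. The simulation changed few genes, evenly up and down, and held no sets within siCHKA. It therefore does not give the error rate of these data, where 62.2% of genes tested were called.

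The 10 genes, the lists, the motifs and the subsets of siCHKA libraries were chosen with earlier results of these data known. SRXN1 and GSTT1 had no matching identifier. Named list genes are at most the 3 with the smallest p in each direction among those changed with a mean of at least 1 CPM, and others named beside them were chosen after their values were seen. In GENCODE, NFE2L2 overlaps HNRNPA3 on the other strand over 5293 bases, outside its canonical transcript. Whether counting used strand is not given in the sources used here. Some genes of the lists are not reported here by name.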

Additional observations from a re-analysis of the deposited data

Results flagged for a closer look

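Among 26 groups of 6 libraries (10 genes and 3 ratios in 2 groups), 1 held a library far from the others, and chance gives about 1.3. The log2 ratio of GPX1 to GPX4 in siNT replicate 6, at -1.14, stood 0.642 of the group's range below the next library, past Dixon's critical value for 6 samples. Without that library the difference between groups was -0.08 (exact permutation test, adjusted p = 0.0292 over the 3 ratios, the alternatives giving 0.0292 to 0.998). GPX1 itself was lowest in this library, at 77.7 CPM.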

How the results depend on the processing

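NFE2L2, KEAP1, GCLC, HMOX1 and CHKA kept direction and call under all 21 alternatives. With siCHKA replicates 1, 3 and 5 only, GCLM (-0.11), NQO1 (-0.12) and GPX1 (0.20) were not past the threshold, GSR turned to 0.0163, the GCLC to GCLM difference became -0.52 and past it, 2 of the 10 genes were lower, and 7 genes of glutathione use were higher. With replicates 2, 4 and 6 only, GPX1 (0.21) was not past the threshold and GSR (-0.18) was, 5 of the 10 genes were lower, and 14 genes of glutathione use were higher. Calls gained or lost with either set alone are descriptive only, as the sets were found in these same data. A 1.2-fold minimum ended the calls of GCLM (-0.33), GSS (0.27), GPX1 (0.20), GPX4 (0.24) and NQO1 (-0.26); it left 2 of the 10 genes lower and 2 higher, 2581 genes lower and 2710 higher of all tested, 4 lower and 1 higher of the NRF2 partners, 7 and 1 of the NRF2 targets, 6 and 5 of the glutathione use genes and 2 and 1 of the selenoprotein genes, as a stricter test must. Leaving out each library in turn gave 0.14 to 0.23 for GPX1, past the threshold in all but the fits without siNT replicate 5 or 6, -0.0777 to -0.0105 for the log2 ratio of GPX1 to GPX4 (past the threshold without siNT replicate 6), and 1 to 2 higher selenoprotein genes (1 without siNT replicate 5 or 6). The cause was not tested. Replicate numbers did not pair the samples: same-numbered samples deviated from their group means with a mean correlation of -0.036 (-0.40 to 0.32), against 0.008 for other pairs, and 1 of 12 samples correlated best with its own number. The replicate block gave 4273 lower and 4494 higher genes, and changed no call among the 10 genes. For NFE2L2 to KEAP1 the exact permutation test by paired sign flips gave an unadjusted p = 0.03125, the smallest it allows. For GCLC to GCLM the same exact permutation test gave 0.09375, and for GPX1 to GPX4 it gave 0.5625. Adjusted over the 3 ratios as elsewhere, none of them would be past the threshold with this pairing. At this depth the 11 NRF2 targets with at most 20 reads per library could not be compared.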
